A study of Homo sapiens with 4 samples.

Results

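Progression from G1 into S phase is driven by cyclins, the regulatory subunits that switch on cyclin-dependent kinases (CDKs). D-type cyclins with CDK4 or CDK6, and then E-type cyclins with CDK2, phosphorylate the retinoblastoma protein RB, which otherwise holds back the E2F transcription factors that switch on genes for DNA replication. The inhibitor p27, encoded by CDKN1B, binds cyclin and CDK complexes and restrains them, and in epithelial cancers CCND1 is a well known end point of signaling from integrins and ERK. The genes described here are 10 members of this circuit, namely CCND1, CCND3, CCNE1, CCNE2, CDK2, CDK4, CDK6, RB1, E2F1 and CDKN1B. They were chosen by gene name, and all 10 were found among the 47251 genes of the expression table, with 81 of its 180500 transcripts.

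The measurements come from AGS, an established line of human gastric adenocarcinoma cells, whose total RNA was sequenced. The study compared cells in which MFAP2, a microfibril protein of the extracellular matrix, was silenced by a lentiviral short hairpin RNA (sh-MFAP2, 2 libraries) with cells carrying a scrambled control hairpin (control, 2 libraries). According to the study's methods the infected cells of both kinds were selected with puromycin, and the libraries used here come from a single hairpin against MFAP2. The labels do not say that the libraries of a group came from separate cultures, so the p-values below measure the spread between these libraries, which may be technical. MFAP2 itself had values of 0 and 0 FPKM in sh-MFAP2 cells and 0.0116 and 0.0138 FPKM in controls, too low to check the labels by the target. FPKM, fragments scaled by feature length and library depth, is taken as the unit because the tables do not name theirs.

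The number of reads behind each library is not given. The step between the lowest values implied between 54900000 and 75100000 reads, so that each of the 10 genes would rest on at least 500 reads in every library. In such bulk RNA, fewer cells expressing a gene and less RNA per cell cannot be told apart. Across the 9873 genes tested, the correlation of log2(FPKM + 1) was 0.9351 between the sh-MFAP2 replicates and 0.9470 between the controls, while libraries of different groups reached 0.9262 to 0.9354. Of 6 epithelial markers, 5 (EPCAM, KRT8, KRT18, KRT19 and CLDN4) had a mean of at least 1 FPKM and CDH1 lay at 0.584 to 1.25 FPKM, whereas all 3 endothelial markers, 5 of 6 fibroblast markers and 4 of 5 leukocyte markers stayed under 0.1 FPKM in all libraries. The exceptions were COL1A1, at 2.27 and 2.07 FPKM in sh-MFAP2 cells and 4.36 and 4.92 FPKM in controls, and LYZ, at 85.5 and 579 FPKM in sh-MFAP2 cells and 89.3 and 369 FPKM in controls. LYZ was thus high in both replicate 2 libraries, and its part in the results below was not tested.

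None of the 10 genes passed the test for a difference between sh-MFAP2 and control cells. The test was limma on log2(FPKM + 1), with a call at p under 0.01 and a Benjamini-Hochberg adjusted p under 0.05 over the 9873 genes averaging 1 FPKM or more, and it called 27 of those genes, or 0.273%. When any 1 of the 4 libraries was left out, or the replicate number was a block, 0 genes were called. In 4 of the 10 genes (CCND1, CDK2, CDK6 and RB1) both sh-MFAP2 libraries lay below both controls, a pattern seen in 31.4% of all genes tested. In 1 gene, E2F1, both lay above, as in 17.5% of all genes tested, and in the other 5 the groups overlapped. The median difference of the 10 genes was -0.37 on the log2 scale, beside -0.05 over all genes tested. By unadjusted p under 0.05, 2 of the 10 (E2F1 and RB1) stood out, beside 12.3% of all genes tested, with adjusted p-values of 0.256 and 0.394. Values below are given as replicate 1, then replicate 2, sh-MFAP2 cells before controls.

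**Figure D1:**
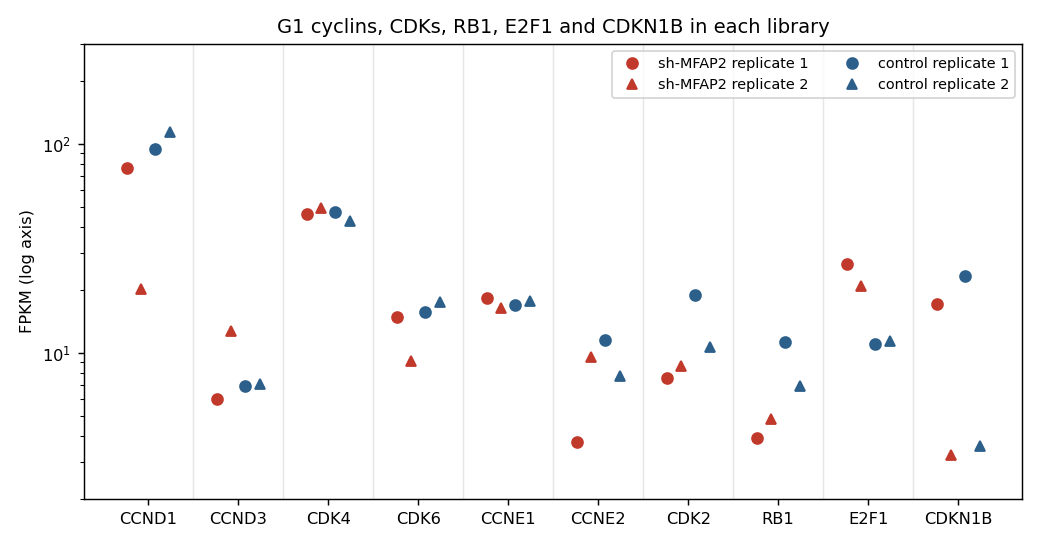
FPKM on a log axis (y) of each of the 10 genes (x) in each library, with red for sh-MFAP2, blue for control, circles for replicate 1 and triangles for replicate 2. E2F1 is above both controls in both sh-MFAP2 libraries, CCND1, CDK6, CDK2 and RB1 are below them, and both replicate 2 libraries are low in CDKN1B.

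The D-type cyclins differed in how they varied. CCND1, which encodes cyclin D1, lies at chr11:69641087-69654474 on the plus strand of GRCh38. Its level was 76.2 and 20.1 FPKM with sh-MFAP2, and 94.6 and 114 FPKM with the control hairpin. The sh-MFAP2 libraries did not reach the controls, but replicate 1 was close to the controls while replicate 2 was 3.79 times lower than replicate 1. The log2 fold change was -1.37 ± 0.695 (SE, n = 2 per group; limma adjusted p = 0.481), and so it did not pass the test against the spread between replicates. Without sh-MFAP2 replicate 2 it was -0.44, and without sh-MFAP2 replicate 1 it was -2.31. That difference of 1.87 on the log2 scale between the sh-MFAP2 replicates was matched or exceeded, in either direction, by 1.74% of genes tested.

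CCND3, encoding cyclin D3, at chr6:41934933-42050357 on the minus strand, showed the opposite order of the sh-MFAP2 replicates. Its level was 6.03 and 12.7 FPKM with sh-MFAP2 and 6.91 and 7.06 FPKM with the control hairpin. The controls lay between the sh-MFAP2 replicates, and the difference was 0.30 ± 0.364 (SE, n = 2 per group; limma adjusted p = 0.732). The third D-type cyclin, CCND2, was listed at 0 FPKM in all 4 libraries. The ratio of CCND1 to CCND3 within a library was therefore 12.6 and 1.58 in sh-MFAP2 cells and 13.7 and 16.1 in controls, so that sh-MFAP2 replicate 2 alone stood far from the rest. On log2(FPKM + 1) the ratio differed by -1.67 between groups, with a pooled SD of 1.42, and the exact two-sided permutation test gave p = 0.333, the smallest value that 2 against 2 libraries allow (adjusted p = 0.666 over 6 ratios).

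Of the kinase partners of the D-type cyclins, CDK4 was level and CDK6 was lower in sh-MFAP2 cells without passing the test. CDK4, at chr12:57747727-57756013 on the minus strand, measured 46.0 and 49.0 FPKM in sh-MFAP2 cells and 47.4 and 42.7 FPKM in controls. The groups overlapped within a narrow range, the highest library being 1.15 times the lowest, and the log2 difference was 0.08 ± 0.118 (SE, n = 2 per group; limma adjusted p = 0.790). CDK6, at chr7:92604921-92836594 on the minus strand, measured 14.8 and 9.17 FPKM in sh-MFAP2 cells and 15.6 and 17.5 FPKM in controls. Both sh-MFAP2 libraries were below the controls, replicate 1 by little, and the difference was -0.46 ± 0.259 (SE, n = 2 per group; limma adjusted p = 0.510). It was -0.14 without sh-MFAP2 replicate 2 and -0.78 without sh-MFAP2 replicate 1. The ratio of CDK4 to CDK6 was 3.10 and 5.35 in sh-MFAP2 cells and 3.04 and 2.44 in controls, with an exact permutation p = 0.333, again the smallest possible.

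Beneath the level CDK4 gene value, its transcripts lay apart between the groups, though none passed the test. The annotation (GENCODE 29) lists a full-length CDK4 transcript of 8 exons and 2076 bases, ENST00000257904, and several shorter models. One of these, ENST00000546489, has 776 bases and an open annotated end, and all 776 bases also lie in exons of the full-length transcript.

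The full-length ENST00000257904 measured 64.3 and 67.2 FPKM in sh-MFAP2 cells and 51.1 and 38.6 FPKM in controls. The shorter ENST00000546489 measured 4.81 and 9.13 FPKM in sh-MFAP2 cells and 34.4 and 43.9 FPKM in controls. Both sh-MFAP2 libraries were thus above the controls for the full-length form and well below them for the shorter form, with no overlap. Of all transcripts tested, 17.8% lay above and 24.9% below both controls in both sh-MFAP2 libraries. The full-length form differed by 0.56 ± 0.208 on the log2 scale (SE, n = 2 per group; limma adjusted p = 0.668 over 22312 transcripts). ENST00000546489 differed by -2.38 ± 0.357 (SE, n = 2 per group; limma adjusted p = 0.317), and so did not pass the threshold either. The smallest adjusted p over all transcripts was 0.0640, with none of 22312 called (0%) and 1704 at unadjusted p under 0.05 (7.64%). Of the 22312, 22 belong to the 10 genes, 7 of them at unadjusted p under 0.05. Those 7 are the 5 shorter CDK4 transcripts tested, which are divided from the same reads, and the tested transcripts of E2F1 and RB1.

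The other shorter CDK4 transcripts lay on the same side. ENST00000552254 measured 0.981 and 0.866 FPKM in sh-MFAP2 cells and 4.55 and 8.33 FPKM in controls, a log2 difference of -1.90 ± 0.326 (SE, n = 2 per group; limma adjusted p = 0.375). ENST00000547281, ENST00000551800 and the retained-intron form ENST00000551706 differed by -1.19, -1.32 and -0.93, with limma adjusted p-values of 0.443, 0.564 and 0.596. All 5 shorter transcripts with a mean of at least 1 FPKM were lower in both sh-MFAP2 libraries than in both controls, beside 24.9% of all transcripts tested, but these 5 share exons and are divided from the same reads, so they are not independent. Weighted by length, transcripts other than ENST00000257904 held 4.60% and 6.69% of the CDK4 value in sh-MFAP2 cells and 26.5% and 38.4% in controls. How reads were divided among transcripts by the authors' program was not tested, and summing the deposited transcript values in place of the gene value turned the CDK4 difference from 0.08 to -0.39, since FPKM of a short transcript weighs as much as that of a long one in such a sum.

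**Figure D2:**
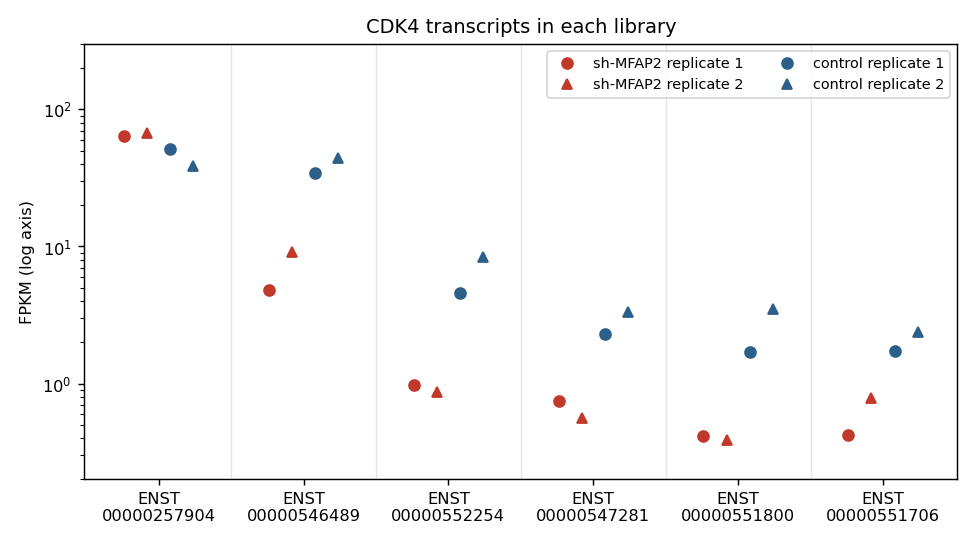
FPKM on a log axis (y) of the 6 CDK4 transcripts with a mean of at least 1 FPKM (x) in each library, colors and shapes as before (red sh-MFAP2, blue control, circle replicate 1, triangle replicate 2). The full-length ENST00000257904 is higher in both sh-MFAP2 libraries, and the 5 shorter transcripts are lower in both.

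Another limit applies to CDK4. Of the 2076 exon bases of its full-length transcript, 51.9% are shared on the opposite strand with TSPAN31, and the strand setting of the library is not given, so reads of the overlap cannot be told apart by strand. TSPAN31 measured 1.63 to 2.02 FPKM in the 4 libraries, far below CDK4, and ENST00000546489 shares 214 of its bases with TSPAN31 exons.

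The E-type cyclins and their kinase also went different ways. CCNE1, encoding cyclin E1, at chr19:29811898-29824308 on the plus strand, was the steadiest gene of the group. It measured 18.2 and 16.3 FPKM in sh-MFAP2 cells and 16.9 and 17.6 FPKM in controls, so the controls lay between the sh-MFAP2 libraries. The log2 difference was -0.0023 ± 0.115 (SE, n = 2 per group; limma adjusted p = 0.995), and its sign turned with quantile normalization and with median of ratios.

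CCNE2, encoding cyclin E2, is at chr8:94879770-94896678 on the minus strand. It measured 3.73 and 9.52 FPKM in sh-MFAP2 cells and 11.5 and 7.78 FPKM in controls. Here sh-MFAP2 replicate 1 was the low library and replicate 2 lay between the controls, which gave a difference of -0.57 ± 0.470 (SE, n = 2 per group; limma adjusted p = 0.617). Without sh-MFAP2 replicate 1 that difference was 0.0041. Its transcript with the highest mean, ENST00000308108, measured 3.14 and 7.42 FPKM against 12.1 and 11.5 FPKM (-1.12 ± 0.411, SE, n = 2 per group; limma adjusted p = 0.663). Both sh-MFAP2 libraries lay below both controls, as in 24.9% of all transcripts tested. A longer form, ENST00000520509, measured 1.72, 6.09, 4.46 and 0.402 FPKM in the same order of libraries and overlapped between groups. Weighted by length, ENST00000308108 held 52.6% and 48.6% of the CCNE2 value in sh-MFAP2 cells and 65.5% and 92.1% in controls. How reads were divided between these forms was not tested. On the opposite strand, exons of INTS8, at 8.43 to 11.0 FPKM, share 55.8% of the bases of ENST00000308108, so reads of CCNE2 and INTS8 cannot be told apart there.

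CDK2, the kinase partner of cyclin E, at chr12:55966769-55972784 on the plus strand, measured 7.55 and 8.69 FPKM in sh-MFAP2 cells. The controls were 18.9 and 10.6 FPKM. Both sh-MFAP2 libraries were lower, and the controls differed 1.77-fold from each other. The difference was -0.74 ± 0.305 (SE, n = 2 per group; limma adjusted p = 0.424), and it was -0.35 without control replicate 1. The 3 CDK2 transcripts with a mean of at least 1 FPKM (ENST00000266970, ENST00000354056 and ENST00000440311) were lower in both sh-MFAP2 libraries, by -0.70, -0.73 and -0.46, none past the threshold. Of all transcripts tested, 24.9% lay below both controls, and the 3 are divided from the reads of a single gene, so they are not independent. The ratio of CCNE1 to CCNE2 overlapped between groups, with 4.89 and 1.71 in sh-MFAP2 cells and 1.46 and 2.26 in controls (exact permutation p = 0.667).

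RB1 and E2F1, the repressor and the activator it binds, lay on opposite sides of the controls. RB1, at chr13:48303726-48599436 on the plus strand, measured 3.91 and 4.81 FPKM in sh-MFAP2 cells and 11.2 and 6.93 FPKM in controls. Both sh-MFAP2 libraries were low, and the mean was 0.480 of the control mean. The log2 difference was -0.88 ± 0.263 (SE, n = 2 per group; limma adjusted p = 0.394), with a range of -1.20 to -0.57 when each library was left out in turn. One transcript of 27 exons, ENST00000267163, held at least 99.6% of the RB1 value in every library.

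E2F1, which activates genes needed for DNA replication, lies at chr20:33675683-33686404 on the minus strand. It measured 26.6 and 20.8 FPKM in sh-MFAP2 cells and 11.0 and 11.4 FPKM in controls. Both sh-MFAP2 libraries stood clear of the controls, the mean was 2.12 times the control mean, and the log2 difference was 1.01 ± 0.159 (SE, n = 2 per group; limma adjusted p = 0.256). E2F1 ranked 149 by p among the 9873 genes tested, the closest of the 10 genes to a call. Leaving out each library in turn gave 0.84 to 1.18. The sign could not turn there, because the groups do not overlap, as in 17.5% of all genes tested that lay above both controls. E2F1 has 1 listed transcript, ENST00000343380, and no gene overlaps it.

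**Figure D3:**
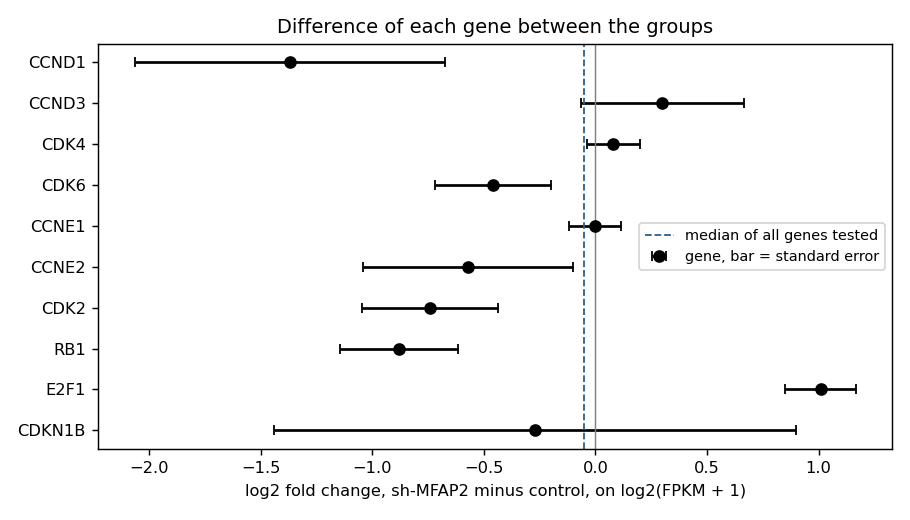
Log2 fold change (x, sh-MFAP2 minus control on log2(FPKM + 1)) of each of the 10 genes (y), with bars for the standard error from limma (n = 2 per group) and a dashed line at the median of all genes tested, -0.05. E2F1 at 1.01 has a short bar, and CDKN1B and CCND1 have the longest.

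The ratio of E2F1 to RB1 within a library was 6.81 and 4.33 in sh-MFAP2 cells and 0.979 and 1.65 in controls. On log2(FPKM + 1) its means were 2.20 and 0.31, a difference of 1.89 with a pooled SD of 0.45, so the groups lay apart by more than the spread between replicates. The exact two-sided permutation test gave p = 0.333, the smallest value that 2 against 2 libraries allow, with an adjusted p = 0.666 over the 6 ratios.

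E2F1 is known to be switched on by E2F factors at its own promoter, so promoters were searched for the E2F motifs TTTGGCGC, TTTCCCGC, TTTCGCGC and TTTGCCGC on both strands, from 250 bases before to 50 bases after the start in RefSeq (GRCh38.p14). Entries were found for 7 of the 10 genes, and those for CCND1, CCNE2 and CDK2 were not. Of the 7, E2F1 alone held a motif, at 2 positions, beside 3.31% of all 35116 promoters. The stretch is shown because it carries both matches, in capitals, at chr20:33686378-33686438 on the minus strand, from -53 to 8 around the start site. The first match is TTTGCCGC read on the other strand, and the second is TTTGGCGC.
E2F1 promoter: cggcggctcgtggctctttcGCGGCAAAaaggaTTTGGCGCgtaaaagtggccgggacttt
A match says only that these letters are there. The RB1 entry lies 172724 bases from the start of ENST00000267163, inside the gene, so it does not describe the promoter of the RB1 transcript measured here. The start sites of the CDKN1B and CDK4 entries lie 244 and 211 bases downstream of the starts of their highest transcripts. Most of each of those windows is therefore downstream of that start, and the lack of a motif there says little of the sequence before it.

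Genes that E2F factors are known to switch on in S phase were set beside E2F1. All 35 of the list were tested and none was called, with 3 at unadjusted p under 0.05 beside 12.3% of all genes. Of these, 21 were higher and 14 lower in sh-MFAP2 cells, with a median of 0.10 on the log2 scale against -0.05 over all genes, and 9 lay above and 9 below the controls in both libraries, beside 17.5% and 31.4% of all genes tested. Among all genes 42.0% were higher and 58.0% lower. The median of the list was 0.057 without sh-MFAP2 replicate 1, and 0.050 once control replicate 2 was left out. LIG1, a DNA ligase of replication, measured 21.3 and 16.5 FPKM against 11.4 and 10.7 FPKM (0.72 ± 0.162, SE, n = 2 per group; limma adjusted p = 0.343), and MCM3, a subunit of the replicative helicase, measured 65.7 and 53.3 FPKM against 38.1 and 48.9 FPKM. On the other side, TYMS, thymidylate synthase, measured 51.8 and 61.0 FPKM against 83.7 and 66.6 FPKM, and CASP8AP2 measured 3.73 and 4.41 FPKM against 5.63 and 5.41 FPKM. An E2F motif was found in 18 of the 31 promoters of the list that had an entry (58.1%), and the median difference was 0.05 in those 18 genes and 0.14 in the 13 without it.

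CDKN1B, encoding p27, at chr12:12715058-12722371 on the plus strand, did not follow the groups. Its level was 17.1 and 3.23 FPKM with sh-MFAP2, and 23.3 and 3.58 FPKM with the control hairpin. Both replicate 2 libraries were low and both replicate 1 libraries high, by 5.29-fold in sh-MFAP2 cells and 6.52-fold in controls. The difference between groups was -0.27 ± 1.17 (SE, n = 2 per group; limma adjusted p = 0.931), and leaving out 1 library moved it from -1.48 to 0.93. A difference over 2 on the log2 scale between replicates, in the same direction in both groups with replicate 1 higher, was seen in 15 of 9873 genes, CDKN1B among them, and with replicate 2 higher in 7. Such a difference in both groups but in opposite directions was seen in 29. In the table as a whole the replicate numbers did not go together (correlation of the replicate differences between groups -0.0572 across genes, which are not independent).

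Among the other CDK inhibitors, the 3 that were tested divided by replicate number, and those too low for the test did not. Of 6 in the list, 3 had a mean of at least 1 FPKM and none was called or had an unadjusted p under 0.05 (a count of 0), with a median of 0.11 that ran from -0.275 to 0.889 when 1 library was left out. CDKN1A, encoding p21, measured 25.2 and 77.0 FPKM in sh-MFAP2 cells and 23.8 and 70.7 FPKM in controls. CDKN2C and CDKN2D, which encode inhibitors of CDK4 and CDK6, measured 0.479 and 2.80 against 0.459 and 0.905 FPKM, and 0.763 and 1.99 against 0.729 and 1.63 FPKM. In all 3, both replicate 2 libraries were above both replicate 1 libraries, the reverse of CDKN1B, and these 3 genes are described by library because their values were seen first. CDKN1A differed by -1.57 and -1.53 between replicates 1 and 2 of the 2 groups, and a difference of at least 1 with replicate 2 higher in both groups was found in 31 genes, 0.314% of those tested. CDKN2C, at -1.36 in sh-MFAP2 cells and -0.39 in controls, and CDKN2D, at -0.76 and -0.61, did not reach that size in both groups. The share of all genes with this order of libraries was not counted. The inhibitors CDKN1C, CDKN2A and CDKN2B had too low a mean for the test. CDKN2A was listed at 0 in 3 libraries and at 0.0135 FPKM in control replicate 1. CDKN1C measured 0.355 and 0.564 FPKM in sh-MFAP2 cells against 0.862 and 0.838 FPKM in controls, and CDKN2B measured 0.348 and 0.485 against 1.07 and 1.06 FPKM. In both genes the sh-MFAP2 libraries were below the controls, as in 31.4% of the genes that were tested. Their values are low and were seen before these genes were named.

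**Figure D4:**
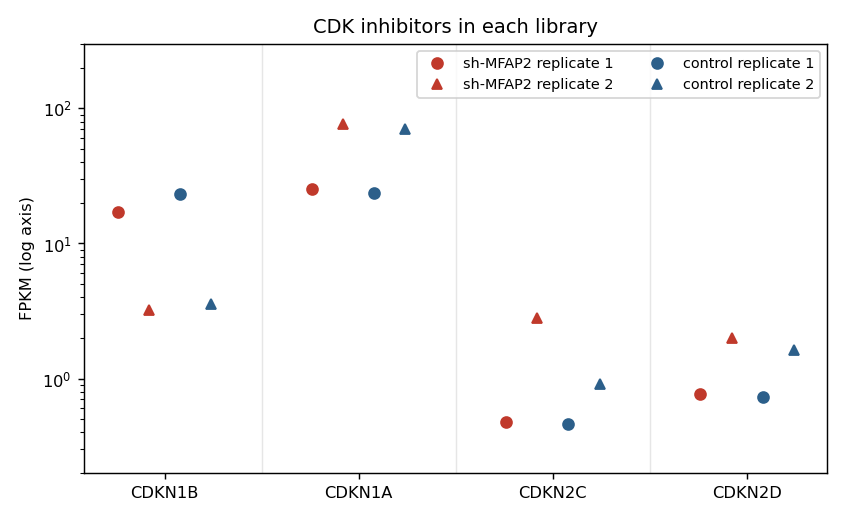
FPKM on a log axis (y) of CDKN1B and the 3 other CDK inhibitors tested (x) in each library, colors and shapes as before (red sh-MFAP2, blue control, circle replicate 1, triangle replicate 2). Both triangles are low in CDKN1B and high in CDKN1A, CDKN2C and CDKN2D, whatever the group.

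Ratios of cyclin to p27 have CDKN1B as the denominator, so its division by replicate number enters them and they are no separate observation of it. CCND1 to CDKN1B was 4.45 and 6.23 in sh-MFAP2 cells and 4.06 and 31.7 in controls, and control replicate 2 was high, with CDKN1B low there and CCND1 not. CCNE1 to CDKN1B was 1.06 and 5.03 in sh-MFAP2 cells and 0.724 and 4.91 in controls, high in both replicate 2 libraries. Both ratios overlapped between groups, with exact permutation p-values of 1 and 0.667.

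The rest of the circuit was taken as lists of known regulators and partners, of which no gene was called. Of 17 pocket proteins, E2F, DP and MuvB subunits, all tested, 14 were lower and 3 higher, with a median of -0.21 beside -0.05 over all genes, 6 were below both controls in both sh-MFAP2 libraries, and 4 had an unadjusted p under 0.05. Over all genes 58.0% were lower, 31.4% were below both controls and 12.3% had such a p. The median of the list was -0.092 without sh-MFAP2 replicate 1. LIN9 and LIN54, subunits of the MuvB core that works with pocket proteins and B-Myb, were among them. LIN9 measured 5.44 and 4.72 FPKM against 8.39 and 7.69 FPKM (-0.57 ± 0.121, SE, n = 2 per group; limma adjusted p = 0.330), and LIN54 measured 1.52 and 2.13 FPKM against 3.31 and 3.51 FPKM (-0.65 ± 0.152, SE, n = 2 per group; limma adjusted p = 0.346). E2F2, another activator E2F, measured 3.65 and 3.63 FPKM against 2.89 and 3.17 FPKM, a difference of 0.20.

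Among 9 tested of 12 other G1 and S cyclins, kinases and activators, 4 were higher and 5 lower, beside 58.0% lower over all genes. An unadjusted p under 0.05 was found for 1, beside 12.3% of all genes. The median was -0.05, equal to that of all genes. That median changed sign, to 0.153 without sh-MFAP2 replicate 1, 0.155 without control replicate 2 and 0.070 with no filter on low values, and it was -0.179 without sh-MFAP2 replicate 2. CCNA2, encoding cyclin A2, measured 35.5 and 38.5 FPKM against 45.9 and 46.6 FPKM, and CDC37, a chaperone partner of CDK4, measured 75.6 and 64.3 FPKM against 52.4 and 55.8 FPKM, while CDC25A, the phosphatase that activates CDK2, measured 13.9 and 12.4 FPKM against 10.9 and 11.4 FPKM. These genes were named because their groups do not overlap. Of all genes tested, 17.5% lay above and 31.4% below both controls in both sh-MFAP2 libraries. The limma adjusted p-values of CCNA2, CDC37 and CDC25A were 0.401, 0.415 and 0.483.

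Genes of cyclin and p27 turnover had 6 higher and 10 lower of 16 tested, with a median of -0.05 and 2 at unadjusted p under 0.05. These counts stand beside 58.0% lower and 12.3% at such a p over all genes tested. The median was -0.022 without sh-MFAP2 replicate 2, and -0.079 once control replicate 1 was left out. CUL4A, a scaffold of ubiquitin ligases, measured 10.3 and 11.4 FPKM against 14.8 and 15.2 FPKM, and USP28, a deubiquitinase, measured 4.42 and 6.14 FPKM against 7.65 and 8.0 FPKM, both below the controls. RNF123, a subunit of a p27 ubiquitin ligase, measured 3.22 and 2.28 FPKM against 1.34 and 2.09 FPKM, and its partner UBAC1 14.1 and 14.7 FPKM against 13.1 and 12.6 FPKM, both above them. The limma adjusted p-values of the 4 genes were 0.353, 0.403, 0.461 and 0.556. They were named because their groups do not overlap. In the list of 16 tested, 4 lay below and 3 above both controls in both sh-MFAP2 libraries, beside 31.4% and 17.5% of all genes tested.

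Among 12 tested transcription regulators of CCND1 and CDKN1B, 10 were lower and 2 higher, with a median of -0.08 beside -0.05 over all genes. An unadjusted p under 0.05 was found for 2, beside 12.3% of all genes tested, of which 58.0% were lower. The median was -0.031 without sh-MFAP2 replicate 1, -0.184 without sh-MFAP2 replicate 2, and -0.168 once control replicate 1 was left out. STAT3, an activator of CCND1, measured 10.8 and 11.6 FPKM against 15.8 and 17.3 FPKM (-0.52 ± 0.112, SE, n = 2 per group; limma adjusted p = 0.331), and SP1, a factor of many GC-rich promoters, measured 1.46 and 1.83 FPKM against 2.63 and 3.22 FPKM (-0.57 ± 0.145, SE, n = 2 per group; limma adjusted p = 0.362). ZBTB17 measured 5.55 and 4.47 FPKM against 4.41 and 4.36 FPKM. Both STAT3 and SP1 were below the controls in both sh-MFAP2 libraries, as 31.4% of all genes tested were.

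**Figure D5:**
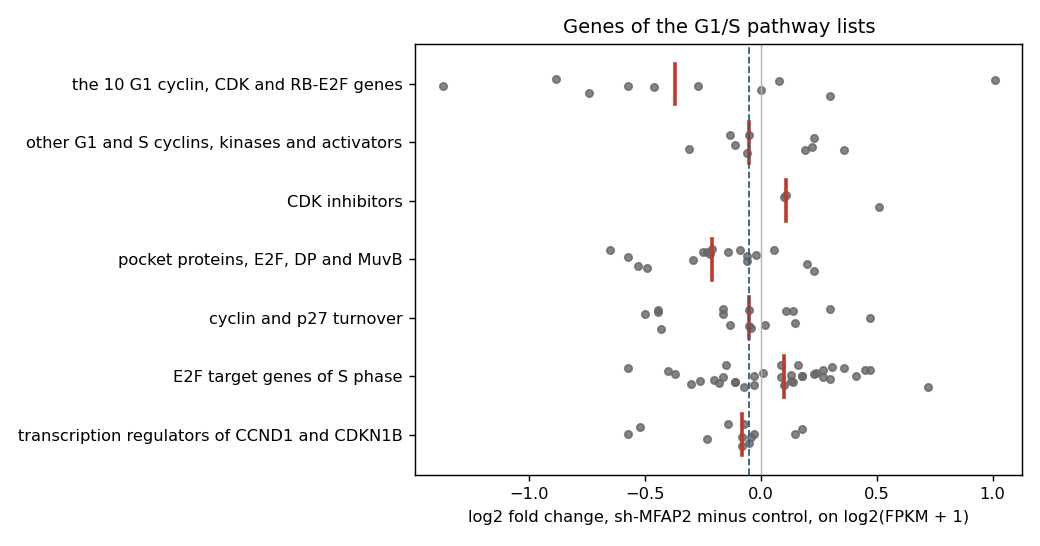
Log2 fold change (x, sh-MFAP2 minus control on log2(FPKM + 1)) of each tested gene of the 10 genes and of 6 pathway lists (y). Grey points are genes, red bars are medians, and the dashed line is the median of all genes tested, -0.05; the medians run from -0.37 in the 10 genes to 0.11 in the CDK inhibitors.

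By level, the order of the 10 genes was set by CCND1 and CDK4 in both groups. In controls CCND1 had the highest mean (104 ± 13.4 FPKM, SD, n = 2), followed by CDK4 (45.0 ± 3.26 FPKM), with CDK4 below CCND1 in both libraries. In sh-MFAP2 cells their means were 48.1 ± 39.6 and 47.5 ± 2.18 FPKM (SD, n = 2), and the libraries overlapped, CCND1 being the higher in replicate 1 and CDK4 in replicate 2. E2F1 was the third by mean in sh-MFAP2 cells (23.7 FPKM) and the seventh in controls (11.2 FPKM), and RB1 was the last in sh-MFAP2 cells (4.36 FPKM). Below CDK6, the ranges of neighbors in the order overlapped in both groups.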

How the data were processed

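Total RNA of 4 AGS libraries was sequenced on libraries made with Illumina protocols. The authors deposited a gene table and a transcript table with 1 value per library; the unit is not named, and the values were taken as FPKM, normalized by the authors for length and depth. The submitters' processing notes name build hg38; the aligner and counting program are not given in the sources used here. Coordinates come from GENCODE 29 (GRCh38), in which 92.5% of the table's gene identifiers were found. Here, values became log2(FPKM + 1), which understates fold changes of low genes; features with a mean of at least 1 FPKM were tested with limma 3.58.1 (R 4.3.3) with a variance trend and Benjamini-Hochberg adjustment, and checked on simulated data. Ratios within a library used the exact two-sided permutation test. Tables were read with Python 3.11.15, pandas 2.3.3 and numpy 2.4.6, and plots drawn with matplotlib 3.10.9.

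The members and the gene lists were chosen with earlier results of these data known. Named genes are the 10 members, their transcripts with a mean of at least 1 FPKM, MFAP2 and, in each list, called genes and the 2 highest and 2 lowest among those whose groups do not overlap; CDKN1A, CDKN2C, CDKN2D and the untested genes named were chosen after their values were seen. Depth was inferred from the step between low values, of which 63.7% to 64.5% lay on whole steps (tolerance 0.05 of a step), so reads were not recovered and no count test was used. Alternatives were other filters, pseudocounts, scalings, thresholds, a replicate block, eBayes without trend, transcript sums and the omission of each library in turn. The labels do not say whether the replicate numbers pair libraries across the groups. The replicate differences of the groups had a correlation of -0.0572 across genes, which is no test of pairing in single genes. One detail of the CDK4 transcripts is not reported here.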

Additional observations from a re-analysis of the deposited data

How the results depend on the processing

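The number of genes called, 27, was 6 without a filter on low values, 9 with a mean of at least 5 FPKM, 0 with the replicate number as a block, 46 by adjusted p under 0.1 only and 1214 by unadjusted p under 0.05 only; leaving out 1 library gave 0 to 0. With the block 722 genes had an unadjusted p under 0.05. None of the 10 genes was called under any of these settings, except that 2 passed an unadjusted p under 0.05 alone. Their transcripts were fitted anew only with a filter at a mean of 0.5 FPKM and with the replicate block, with none called. In the main fit 7 passed an unadjusted p under 0.05 alone, 5 of them shorter CDK4 transcripts. The median of the 10 genes ran from -0.608 to -0.164 when 1 library was left out.

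The sign of CCNE1 turned with quantile normalization (0.03), median of ratios (0.05), without sh-MFAP2 replicate 2 (0.08) or control replicate 2 (0.02), its range with 1 library left out being -0.08 to 0.08. CCNE2 turned without sh-MFAP2 replicate 1 (0.0041, range -1.15 to 0.0041), CCND3 without sh-MFAP2 replicate 2 (-0.18, range -0.18 to 0.78), CDKN1B without sh-MFAP2 replicate 2 (0.78) or control replicate 1 (0.93, range -1.48 to 0.93), and CDK4 with sums of transcripts (-0.39). The median of cyclin and p27 turnover was -0.159 with a mean of at least 5 FPKM. With 1 library left out, that of the CDK inhibitors ran from -0.275 to 0.889 and that of the regulators of CCND1 and CDKN1B from -0.184 to -0.031.

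Taken by replicate number (block 1, then block 2), the log2 ratio differences were -0.14 and -3.21 for CCND1 to CCND3, 1.51 and -0.37 for CCNE1 to CCNE2, 0.02 and 1.06 for CDK4 to CDK6, and 2.52 and 1.26 for E2F1 to RB1. The causes were not tested. With 2 libraries a group, the spread is estimated poorly, and a difference that missed the threshold is not shown to be absent.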
